A study of Mus musculus with 8 samples.

Results

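Interleukins and their receptors were examined in whole liver of mice that carry a liver tumour genotype with or without Keap1. Members were all genes with a probe whose mouse symbol begins with Il and a digit, which gave 81 of the 19751 genes named on the array, measured by 96 probes. Both genotypes express, only in liver, mutant p53 (R172H) together with an activated oncogene. AKP::Keap1 mice differ from AKP mice by the deletion of Keap1, so all 4 groups share the oncogene and the p53 mutation and none is wild type. Each genotype was sampled in 2 males and 2 females, with 1 array of Cy3-labelled whole liver RNA per sample. The promoter that limits expression to the liver, the strain and the ages are not given in the sources used here. The series asks how loss of Keap1, the adaptor that marks the transcription factor Nrf2 for degradation, acts on bile duct cancer driven by these alleles.

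Interleukins are secreted signalling proteins by which immune, epithelial and stromal cells instruct each other, and each acts through receptor chains that are often shared within a family. Receptors of the IL-1 and IL-17 families signal through adaptors to NF-kappaB, whereas those of the common gamma chain, common beta chain, IL-6, IL-10 and IL-12 families signal through JAK kinases and STAT factors. Decoy receptors and antagonists bind a ligand or receptor without signalling. In liver, hepatocytes carry the IL-6 receptor and answer with acute phase proteins, resident macrophages release IL-1, and IL-22 and IL-17 act on epithelial cells.

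Levels are log2 of the processed signal relative to each array's 75th percentile, so a level of 0 is a bright probe and -8 lies near the background; levels of different genes come from different probes and are not compared. A difference is AKP::Keap1 minus AKP on this log2 scale, with the standard error of the limma fit over all 8 arrays. Calls were made below an adjusted p of 0.05 (Benjamini-Hochberg) over all 15833 genes tested. Because nothing in the labels says more than 1 mouse per array, p-values measure only the spread between these samples. Each of the 4 slides holds 1 group, so slide and group cannot be told apart. The female and male arrays were scanned on 2 different days, so sex and scan day cannot be told apart either.

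Between 65.7% and 70.7% of spots were well above background per array, none was saturated, and replicates correlated at 0.9895 to 0.9919 across genes. Keap1 was lower in every AKP::Keap1 mouse, at -1.40 to -0.52 against 1.68 to 2.14 in the AKP mice. The liver markers Alb and Ttr and the other hepatocyte genes were bright on all arrays, and 4 of 8 hepatocyte markers fell and none rose. Markers of other cells differed between genotypes too: 7 of 8 bile duct markers rose (median difference 3.29), as did 5 of 7 neutrophil markers (median 2.19), 4 of 7 macrophage and monocyte markers, 2 of 6 mast cell, basophil and innate lymphoid markers (1 fell) and 5 of 9 stellate cell and fibroblast markers (2 fell). Only 1 of 9 T and NK cell markers and 1 of 6 B and plasma cell markers rose, no Kupffer cell marker rose and 1 of 6 fell, and 5 of 7 endothelial markers fell. The summed linear level of the neutrophil list was 4.48 to 8.12 in AKP and 29.3 to 39.7 in AKP::Keap1 mice, and that of the bile duct list 3.41 to 9.42 and 39.9 to 86.8. That of the stellate cell and fibroblast list overlapped, at 43.4 to 59.2 and 48.2 to 64.1. Ms4a2 and Mcpt8 of these lists did not pass the filter on dim probes, and Ly6g, Cd68 and Trbc2 had no named probe. The part of these cells in the differences below was not tested, and in bulk liver fewer cells of a type and less RNA per cell cannot be told apart.

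Of the 81 members, 58 were well above background on at least 2 arrays and were tested, 46 of them on all 8 arrays. Any one array measured 46 to 57 members above background, with 46 and 48 in the AKP males, 50 and 54 in the AKP females, and 56 or 57 in each AKP::Keap1 mouse. Over all spots the share above background was also lowest in the AKP males, at 66.3% and 65.7%. It was 70.1% and 68.0% in the AKP females, 70.7% in both AKP::Keap1 males, and 70.3% and 68.7% in the AKP::Keap1 females, so there the genotypes overlapped. A member that passed only through the genotype in which it is high had to differ, so counts over the 58 describe those genes and not all members. By genotype over both sexes 28 members were called, or 48.3%, beside 39.1% of all genes. Of these, 22 were higher in AKP::Keap1 mice, where 21.8% of all genes were, and 6 were lower, where 17.2% of all genes were. The median difference was 0.33 over the members and -0.00094 over all genes. On the probes used, the 4 arrays of each genotype did not overlap for 16 members. Of these 15 were higher (25.9%, beside 15.5% of all genes) and 1 lower, Il1rap, beside 11.5%.

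How many members rose for each that fell depended on the scaling. The split of 22 higher to 6 lower became 19 to 10 with quantile normalization and 15 to 14 when arrays were shifted to their median, which moved the median of all genes to -0.25. It became 32 to 3 without any scaling, where the median of all genes was 0.31, and 13 to 13 with normexp background correction, where that median was -0.12. With the slide as a random block 15 members were called, 13 higher and 2 lower. That fit held genotype and sex but no term for a genotype difference that differs between the sexes. A call lost in it can therefore follow from either change to the fit, which was not tested. The calls of 10 members held under every alternative that tested them, and these were Il1f6, Il1r2, Il1rap, Il17d, Il17rd, Il17re, Il21r, Il22, Il31ra and Il4i1. Among them Il1f6 and Il31ra passed the filter on dim probes only through AKP::Keap1 mice.

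**Figure D1:**
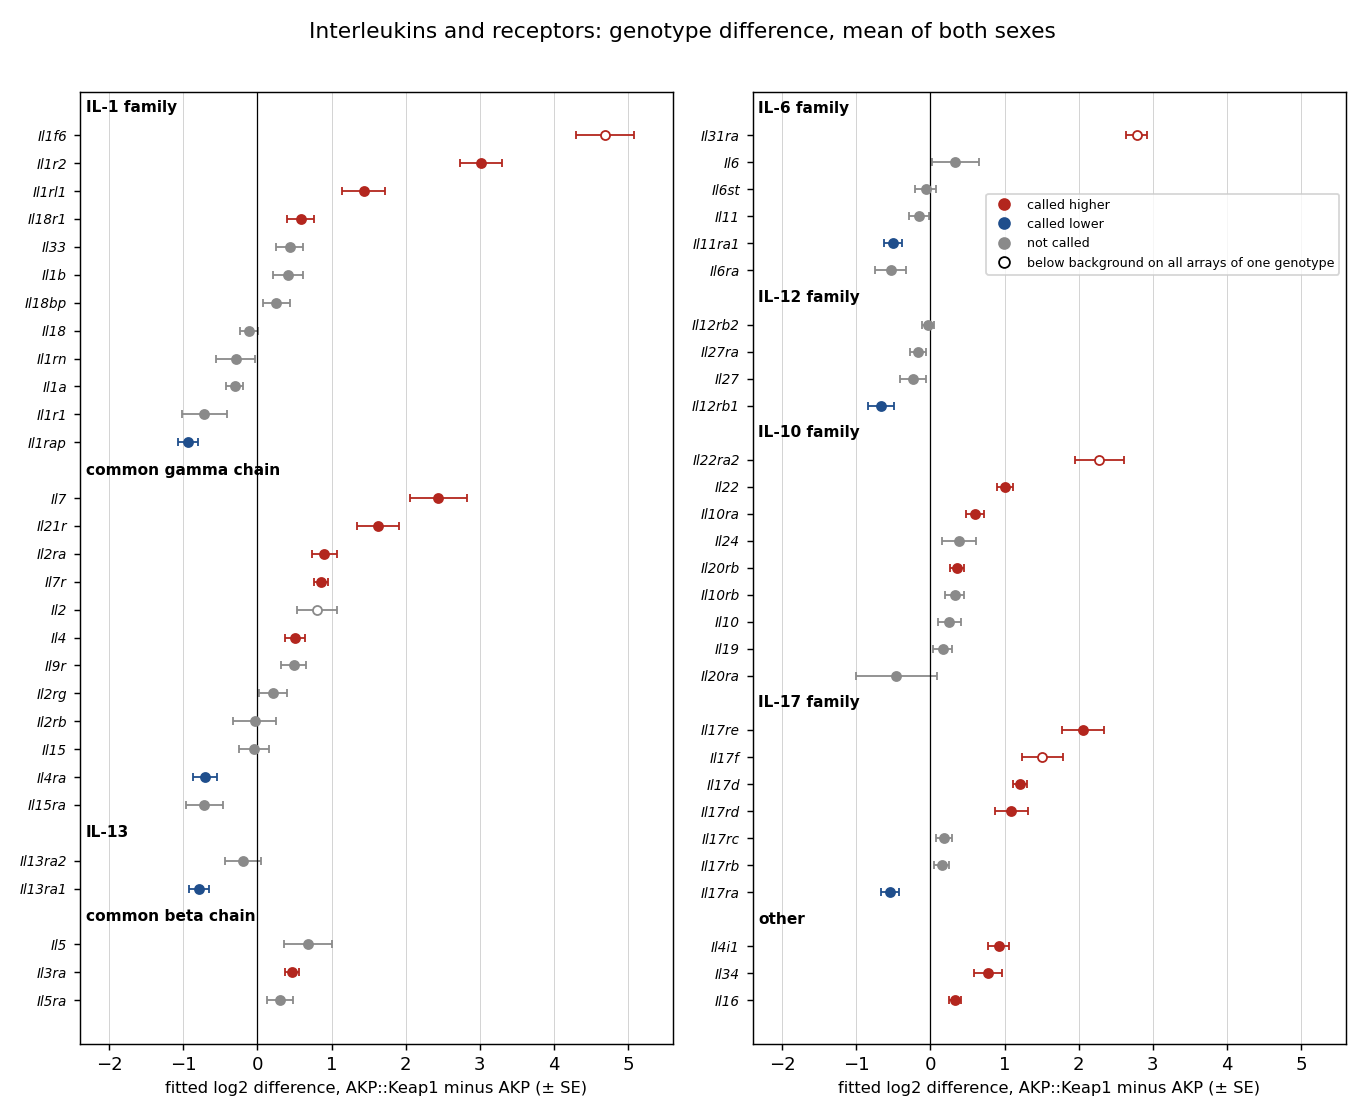
Fitted log2 difference, AKP::Keap1 minus AKP as the mean of both sexes, with its standard error for the 58 members tested, grouped by family; red points were called higher, blue points lower, grey points were not called, and open points mark genes not above background on any array of one genotype. Il1f6 lies farthest right at 4.68, a value set against AKP arrays below background, and Il1rap farthest left at -0.94; with normexp background correction Il17f, Il22ra2, Il2ra, Il4 and Il7r fall below 0, and with probes averaged Il18r1 falls below 0 and Il4ra above it.

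In the IL-1 family, 12 of 21 members were tested, of which 4 rose, 1 fell and 7 were not called. The counts by family here and below stand beside 21.8% of all genes called higher and 17.2% lower, and each family holds few genes. Il1f6 is the older symbol for the ligand IL-36 alpha, an alarm signal of epithelial cells. Il1f6 was not well above background in any AKP mouse, with levels of -8.80 and -8.74 in males and -9.19 and -8.98 in females. It read -3.81 and -3.83 in AKP::Keap1 males and -5.61 and -3.72 in AKP::Keap1 females. All 4 AKP::Keap1 mice were therefore far above all AKP mice, and 1 female lay below the other three. The change was at least 5.46-fold, with each dim array raised to the lowest signal well above background on it. Its adjusted p (0.00111, limma) was taken on AKP values below background. Il1f6 passed the filter on dim probes only through AKP::Keap1 mice, so it had to differ. The bound was at least 6.62-fold in males and at least 4.50-fold in females.

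Il1r2, the decoy receptor that binds IL-1 without signalling, read -6.89 and -7.18 in AKP males and -6.18 and -6.94 in AKP females. In AKP::Keap1 mice it read -4.20 and -3.53 in males and -4.14 and -3.25 in females. The genotypes did not overlap, and among the AKP mice only 1 female was above background. The difference was 3.02 ± 0.28 (SE, adjusted p = 0.00145, limma), of which the AKP side rests on 3 arrays below background and 1 above. In males, where both AKP arrays were below background, the change was at least 6.42-fold. The 250 bases before its start, at chr1:40085843-40086092 on the plus strand of GRCm38.p6, are shown for the STAT motif they hold, in capitals.
Il1r2: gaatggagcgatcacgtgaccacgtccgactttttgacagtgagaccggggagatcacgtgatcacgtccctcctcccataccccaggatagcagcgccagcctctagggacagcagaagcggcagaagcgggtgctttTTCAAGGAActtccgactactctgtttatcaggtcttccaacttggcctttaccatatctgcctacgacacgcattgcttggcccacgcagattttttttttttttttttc

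Il1rl1, the receptor for the alarm ligand IL-33, was measured by 1 of its 3 probes, the other two staying below background on all arrays. Its levels were -3.77 and -4.93 in AKP males against -2.21 and -1.97 in AKP::Keap1 males, and -4.40 and -4.34 in AKP females and -4.16 and -3.38 in AKP::Keap1 females. The male groups stood well apart, the female groups narrowly, and over both sexes the genotypes overlapped. The difference was 1.43 ± 0.29 (SE, adjusted p = 0.0121, limma), and the adjusted p was 0.0633 with the slide as a random block. Il18r1, a chain of the IL-18 receptor, rose by 0.58 on the probe used but read -1.43 on its other probe and -0.42 with the probes averaged. Its call was lost with the slide as a random block (adjusted p = 0.107) and without any one of 6 arrays, namely both AKP males, both AKP::Keap1 males, AKP female replicate 2 and AKP::Keap1 female replicate 1, where the adjusted p reached 0.123.

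Il1rap is the accessory chain that IL-1, IL-33 and IL-36 receptors all need for signalling. On the probes used, it was the only member whose 4 AKP::Keap1 arrays were all below the AKP arrays. Its levels were 3.88, 3.83, 3.90 and 3.55 in AKP mice and 3.29, 2.96, 2.72 and 2.44 in AKP::Keap1 mice, males before females. The difference was -0.94 ± 0.13 (SE, adjusted p = 0.0039, limma), and its other probe, which was above background on 4 arrays, read -2.31. Thus in the same livers the probes for a ligand, a decoy and a receptor of this family read higher while that of their shared accessory chain read lower. Il1r1, the signalling IL-1 receptor (-0.71 ± 0.30, SE, adjusted p = 0.105), Il18 (-0.11), the IL-18 binding protein Il18bp (0.25) and Il33 (0.43) were not called over both sexes.

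**Figure D2:**
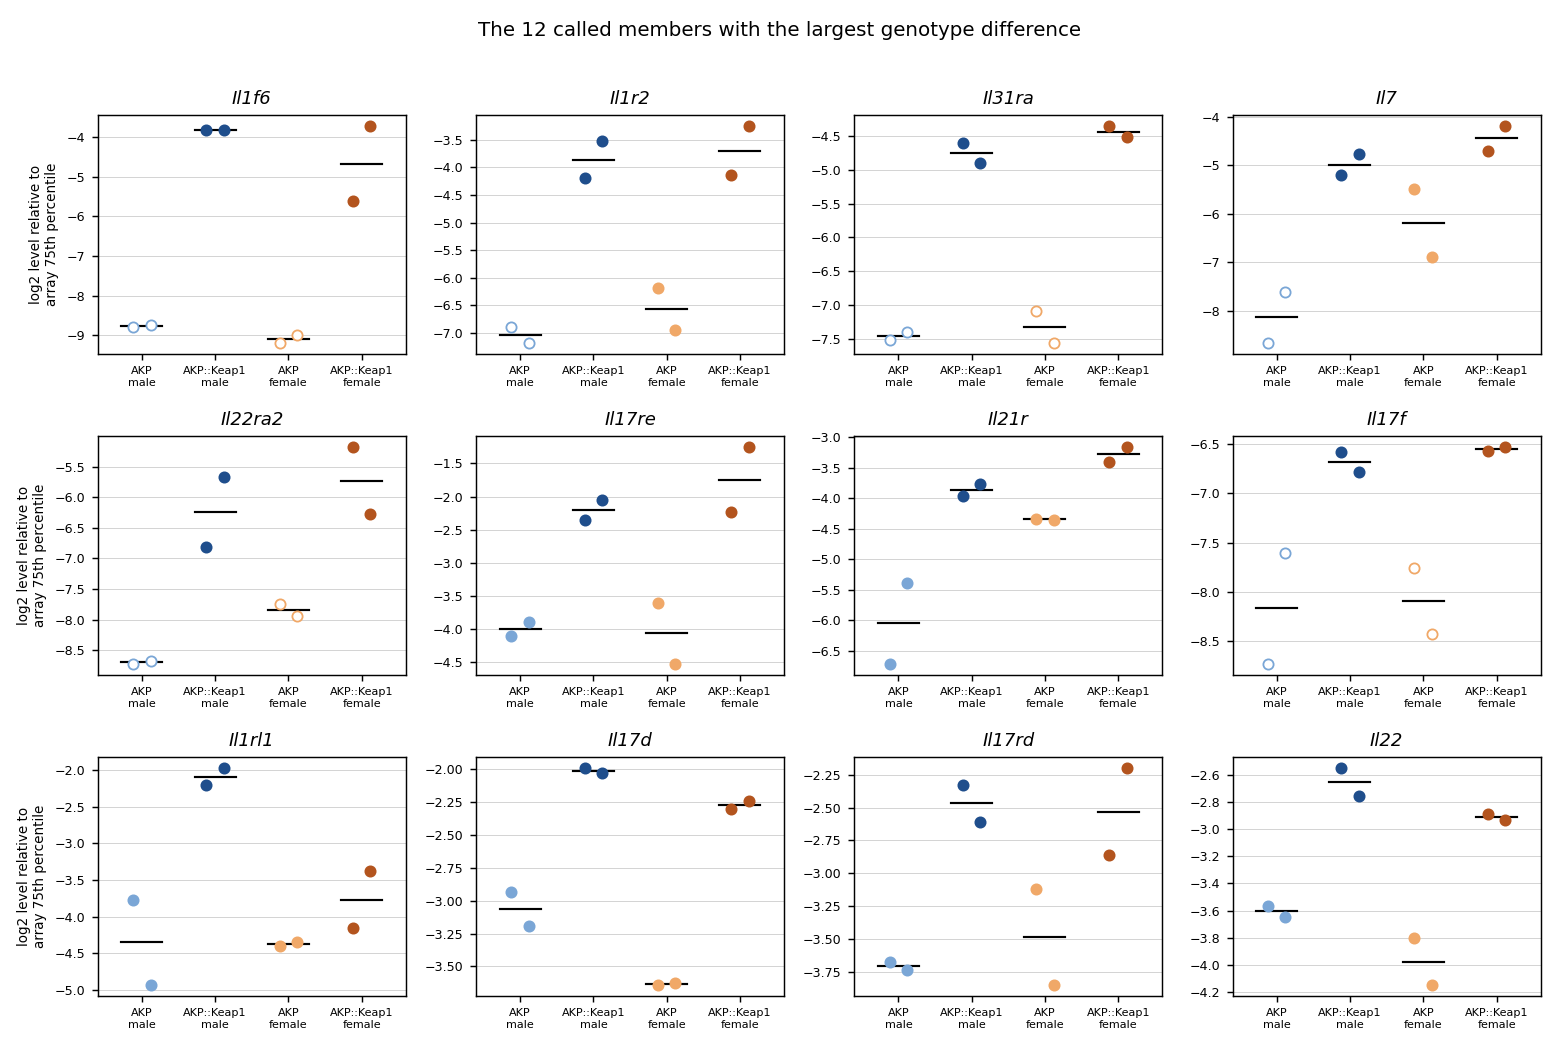
Log2 level relative to the array's 75th percentile in each mouse (points) with the mean of each group of 2 (bars) for the 12 called members with the largest genotype difference; open points mark groups in which neither array was well above background. For 11 of the 12, all but Il1rl1, the 4 AKP::Keap1 mice lie above the 4 AKP mice, as they do for 15.5% of all genes. The 12 were chosen for a large difference, so little overlap follows from the choice. Il1f6, Il31ra, Il22ra2 and Il17f also passed the filter on dim probes only through AKP::Keap1 mice. With normexp background correction the differences of Il22ra2 and Il17f over both sexes, and of Il7 in males, fall below 0.

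The IL-1 ligands and their antagonist followed a different pattern, with opposite fitted differences in males and females. Il1rn encodes the IL-1 receptor antagonist, which occupies the IL-1 receptor without activating it. Among males it read -4.93 and -4.23 with Keap1 and -3.12 and -3.42 without, and among females -1.41 and -0.74 with Keap1 and -3.34 and -2.60 without. The AKP groups of the sexes were the extremes, and the AKP::Keap1 groups overlapped between the sexes. Il1rn thus rose by 1.31 ± 0.37 in males (SE, adjusted p = 0.0444, limma) and fell by 1.90 ± 0.37 in females (adjusted p = 0.0195). The female difference minus the male difference was -3.21 ± 0.52 (SE, adjusted p = 0.0478, limma).

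Il1a, the ligand IL-1 alpha, which is released from damaged cells, read -4.18 and -4.13 in the AKP males against -3.64 and -3.72 in the AKP::Keap1 males. The AKP females read -2.32 and -2.05 and the AKP::Keap1 females -3.44 and -3.13. Every AKP::Keap1 male was above every AKP male, and every AKP::Keap1 female was below every AKP female. The male difference of 0.48 ± 0.16 was not called (SE, adjusted p = 0.0664, limma), the female difference of -1.10 ± 0.16 was (adjusted p = 0.00903), and they differed by -1.58 ± 0.22 (adjusted p = 0.0401). Il1b, the ligand IL-1 beta of activated macrophages, rose by 1.25 ± 0.29 in males (adjusted p = 0.0259) and read -0.43 ± 0.29 in females, and its difference between the sexes missed the threshold (-1.68 ± 0.41, SE, adjusted p = 0.0932, limma).

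Il1a and Il1rn were the only 2 of 58 members whose genotype difference was called as differing between the sexes (the interaction term), 3.45%, beside 1.72% of all genes. For both the genotype difference was lower in females than in males, as it was for 1.31% of all genes, while their levels averaged over the genotypes were higher in females. Both calls were lost without any one of the 8 arrays, with adjusted p from 0.0756 to 0.123 for Il1a and from 0.0808 to 0.144 for Il1rn, and without AKP::Keap1 male replicate 1 the 2 members called were Il27 and Il6 instead. Both were also lost with quantile normalization, without the filter on dim probes and with the replicate number as a block, and with normexp background correction that of Il1a was lost (adjusted p = 0.0794) while that of Il1rn was not (adjusted p = 0.0419), whereas they were called when arrays were shifted to their median and with trend and robust variances. The 250 bases before the start of each are shown because both hold an AP-1 motif, in capitals. That of Il1a lies at chr2:129309973-129310222 on the minus strand and that of Il1rn, the first of 3 starts listed, at chr2:24336610-24336859 on the plus strand of GRCm38.p6.
Il1a: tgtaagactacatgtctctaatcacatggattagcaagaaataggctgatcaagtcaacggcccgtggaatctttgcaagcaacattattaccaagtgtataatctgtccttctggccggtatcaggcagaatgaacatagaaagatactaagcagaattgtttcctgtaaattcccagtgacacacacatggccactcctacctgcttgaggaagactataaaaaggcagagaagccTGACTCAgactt
Il1rn: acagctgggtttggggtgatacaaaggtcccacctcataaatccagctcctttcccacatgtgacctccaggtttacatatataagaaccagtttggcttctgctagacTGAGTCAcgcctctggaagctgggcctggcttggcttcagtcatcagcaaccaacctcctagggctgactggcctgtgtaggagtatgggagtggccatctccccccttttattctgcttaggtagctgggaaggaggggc

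**Figure D3:**
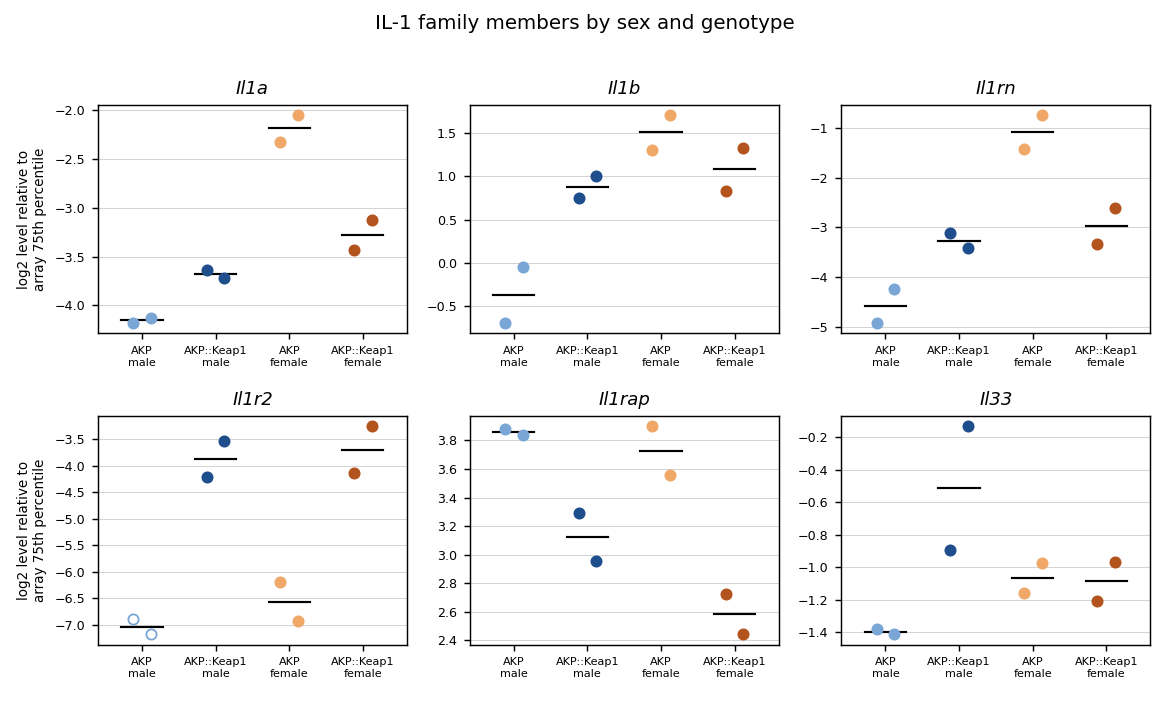
Log2 level relative to the array's 75th percentile in each mouse (points) with group means of 2 (bars) for 6 IL-1 family members; open points mark groups in which neither array was well above background. Il1a, Il1b and Il1rn are lowest in AKP males, Il1a and Il1rn are highest in AKP females, whereas Il1r2 is higher and Il1rap lower in AKP::Keap1 mice of both sexes.

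In the IL-17 family 7 of 11 members were tested, of which 4 rose and 1 fell, with a median difference of 1.09. Of all genes 21.8% were called higher and 17.2% lower. Of the 4 that rose, Il17f passed the filter on dim probes only through AKP::Keap1 mice, and the second probe of Il17d read -0.29. The IL-17 cytokines are known to act on epithelial cells and to draw in neutrophils. Of the 7 neutrophil markers tested 5 rose in the same livers, and a link between them and this family was not tested. Il17re, the epithelial receptor chain for IL-17C, read -4.10 and -3.90 in AKP males and -3.60 and -4.52 in AKP females. It read -2.35 and -2.05 in AKP::Keap1 males and -2.24 and -1.25 in AKP::Keap1 females, so all 4 exceeded every AKP mouse. The difference was 2.06 ± 0.29 (SE, adjusted p = 0.0038, limma), a 4.16-fold change. Il17rd, a receptor-like protein also known as a brake on fibroblast growth factor signalling, read -3.67, -3.74, -3.12 and -3.85 in AKP mice and -2.33, -2.61, -2.86 and -2.20 in AKP::Keap1 mice, males before females. Its genotypes did not overlap, and the difference was 1.09 ± 0.22 (SE, adjusted p = 0.0112, limma).

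The 250 bases before the starts of Il17re (chr6:113458521-113458770, plus strand, GRCm38.p6) and Il17rd (chr14:27038751-27039000, plus strand) are shown because both hold the core of the antioxidant response element, the element that Nrf2 is known to bind. The capitals mark it, on the reverse strand in Il17rd.
Il17re: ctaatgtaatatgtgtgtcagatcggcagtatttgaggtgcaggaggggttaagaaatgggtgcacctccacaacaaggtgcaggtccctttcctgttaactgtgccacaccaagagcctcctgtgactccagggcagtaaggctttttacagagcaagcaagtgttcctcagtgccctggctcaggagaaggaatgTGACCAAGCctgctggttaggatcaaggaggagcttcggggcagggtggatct
Il17rd: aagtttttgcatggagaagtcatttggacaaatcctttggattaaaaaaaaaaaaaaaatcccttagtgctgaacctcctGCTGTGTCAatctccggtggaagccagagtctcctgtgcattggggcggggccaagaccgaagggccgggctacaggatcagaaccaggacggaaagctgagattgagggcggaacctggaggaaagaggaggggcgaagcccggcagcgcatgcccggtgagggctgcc

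The ligand Il17d read -2.94 and -3.19 in AKP males and -3.64 and -3.62 in AKP females. In AKP::Keap1 mice it read -1.99 and -2.03 in males and -2.30 and -2.24 in females. Replicates were close and the genotypes did not overlap, with a difference of 1.21 ± 0.09 (SE, adjusted p = 0.000811, limma). Il17d has a second probe of similar brightness, which read -0.29, so the probes disagree. Il17f, a ligand of lymphocytes that acts together with IL-17A, was not above background in any AKP mouse (-8.73, -7.60, -7.76 and -8.42) and was above it in 1 AKP::Keap1 mouse of each sex (-6.58, -6.79, -6.57 and -6.53). Its bound was at least 1.05-fold, and its adjusted p (0.00831, limma) was taken on AKP values below background. Il17f passed the filter on dim probes only through AKP::Keap1 mice. With normexp background correction its difference was -0.17 (adjusted p = 0.319). Il17ra, the receptor chain shared by IL-17 ligands, fell by 0.54 ± 0.12 (SE, adjusted p = 0.0149, limma), with an adjusted p of 0.0982 with the slide as a random block. Il17rb (0.15) and Il17rc (0.19) were not called over both sexes, and Il17a, Il17b, Il17c and Il25 were not tested, Il17a and Il17c being above background on 1 array each.

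Among members of the common gamma chain family, which supports lymphocytes, 12 of 14 were tested, 5 rose and 1 fell (beside 21.8% and 17.2% of all genes). Il7, a survival factor for lymphocytes that stromal and epithelial cells make, read -8.65 and -7.60 in AKP males and -5.48 and -6.89 in AKP females, where 1 array was above background. In AKP::Keap1 mice it read -5.20 and -4.78 in males and -4.70 and -4.19 in females. The difference was 2.44 ± 0.38 (SE, adjusted p = 0.00528, limma) and was called in males, at least 2.94-fold, but not in females (1.73 ± 0.54, adjusted p = 0.0679). With normexp background correction the male difference of Il7 was -0.08. Its receptor chain Il7r rose by 0.86 ± 0.10 (SE, adjusted p = 0.0023, limma) but read -0.04 with normexp background correction. The 250 bases before the start of Il7r, at chr15:9529877-9530126 on the minus strand of GRCm38.p6, hold a STAT motif, in capitals.
Il7r: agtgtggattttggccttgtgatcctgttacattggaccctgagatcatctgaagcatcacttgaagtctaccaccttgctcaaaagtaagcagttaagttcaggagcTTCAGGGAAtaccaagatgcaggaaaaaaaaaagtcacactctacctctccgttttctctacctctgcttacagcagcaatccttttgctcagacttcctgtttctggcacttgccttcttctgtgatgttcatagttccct

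Il21r, the receptor for the T cell cytokine IL-21, read -6.72 and -5.39 in AKP males and -4.35 and -4.35 in AKP females. It read -3.97 and -3.77 in AKP::Keap1 males and -3.40 and -3.16 in AKP::Keap1 females. The genotypes did not overlap, and the difference was 1.62 ± 0.28 (SE, adjusted p = 0.00722, limma). Il2ra, the high affinity chain of the IL-2 receptor found on regulatory and activated T cells, rose by 0.90 (adjusted p = 0.0849 with the slide as a random block), with 1.57 ± 0.24 in males and 0.22 ± 0.24 in females and no call for the difference between them (adjusted p = 0.0986, limma), and over both sexes it read -0.10 with normexp background correction. The type 2 cytokine Il4 rose by 0.50, but read -0.14 with normexp background correction, and its call was lost with the slide as a random block (adjusted p = 0.0711) and without AKP male replicate 1, either AKP::Keap1 male, either AKP female or AKP::Keap1 female replicate 1, with adjusted p up to 0.0825.

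Of the receptor chains for IL-4 and IL-13, Il13ra1 and Il4ra were called lower on the probes used. Il13ra1, which pairs with the IL-4 receptor chain in hepatocytes and epithelial cells, fell by 0.78 ± 0.13 (SE, adjusted p = 0.00694, limma), with adjusted p = 0.118 with the slide as a random block. It was called in females, which read 0.58 and 0.84 in AKP and -0.72 and -0.89 in AKP::Keap1 mice (-1.52 ± 0.19), whereas males read -0.55 and -0.56 in AKP and -0.84 and -0.37 in AKP::Keap1 mice. The female minus male difference was not called (-1.47 ± 0.27, SE, adjusted p = 0.0615, limma). Il4ra fell by 0.71 ± 0.16 (SE, adjusted p = 0.0161, limma) on the probe used, but its other probe read 1.11 higher and the mean of both read 0.20, so its direction rests on the probe. The Il4ra call was also lost without AKP::Keap1 male replicate 1 or AKP female replicate 2, with adjusted p up to 0.0525. Il15ra (-0.72, adjusted p = 0.0619), Il9r (0.49), Il2rg (0.21), Il2rb (-0.04) and Il15 (-0.04) were not called, nor was the decoy Il13ra2 (-0.20). The other probe of Il15ra read -1.09, with its AKP::Keap1 arrays all below its AKP arrays. Il2 was not above background in any AKP mouse and was so in both AKP::Keap1 females, and its change of at least 1.19-fold was not called (adjusted p = 0.0563, limma).

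In the IL-6 family, 6 of 7 members were tested, 1 rose and 1 fell. Il31ra, the receptor for the itch cytokine IL-31, was not above background in any AKP mouse, at -7.50 and -7.39 in males and -7.08 and -7.55 in females. It was above background in every AKP::Keap1 mouse, at -4.61 and -4.91 in males and -4.36 and -4.53 in females. The change was at least 4.26-fold. Its adjusted p (0.000317, limma) was taken on AKP values below background. Il31ra passed the filter on dim probes only through AKP::Keap1 mice, so it had to differ. Its second probe stayed below background on all arrays, and its ligand Il31 was not tested. The 250 bases before its start, at chr13:112580663-112580912 on the minus strand of GRCm38.p6, hold a STAT motif, in capitals.
Il31ra: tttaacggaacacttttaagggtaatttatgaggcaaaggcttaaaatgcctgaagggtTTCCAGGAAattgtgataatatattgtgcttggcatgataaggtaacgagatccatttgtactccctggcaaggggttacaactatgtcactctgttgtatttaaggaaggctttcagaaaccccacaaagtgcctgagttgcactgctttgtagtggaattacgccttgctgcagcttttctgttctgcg

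Il11ra1, the IL-11 receptor, fell by 0.51 ± 0.12 (SE, adjusted p = 0.0213, limma); a near-identical copy of this gene exists, so the signal may be shared. Its call was lost with the slide as a random block (adjusted p = 0.0943) and without AKP male replicate 1, AKP::Keap1 male replicate 2, AKP female replicate 1 or AKP::Keap1 female replicate 2, with adjusted p up to 0.0723. The IL-6 receptor Il6ra (-0.54, adjusted p = 0.0861), the shared signalling chain Il6st (-0.06) and the ligand Il11 (-0.15) were not called. Il6 itself read -4.52 and -4.47 in AKP males against -4.02 and -2.48 in AKP::Keap1 males, and -3.88 and -3.83 in AKP females and -4.50 and -4.37 in AKP::Keap1 females. Its difference was 0.33 ± 0.32 (SE, adjusted p = 0.43, limma), but 0.72 with a call (adjusted p = 0.0102) without AKP::Keap1 male replicate 1 and -0.05 without AKP::Keap1 male replicate 2. In that replicate 2 the acute phase genes Saa1 (8.34, against 5.26 in the other male) and Lcn2 (5.74, against 3.79) were also highest. Of 18 acute phase genes tested, Lcn2 rose by 2.15 and Crp fell by 0.55, and leaving out 1 array gave from 1 to 8 calls.

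In the IL-12 family 4 of 7 members were tested. Il12rb1, a receptor chain for IL-12 and IL-23, fell by 0.67 ± 0.17 (SE, adjusted p = 0.0266, limma) on the probe used, and its other probe read 0.28 higher. The difference was -1.60 ± 0.25 in males, 0.25 ± 0.25 in females and not called between them (SE, adjusted p = 0.0644, limma), and the call over both sexes was lost with the slide as a random block (adjusted p = 0.26) and without either AKP male, AKP female replicate 2 or either AKP::Keap1 female, with adjusted p up to 0.0787. Il12rb2 (-0.03), Il27 (-0.24) and Il27ra (-0.17) were not called over both sexes. Of the common beta chain family 3 of 4 members were tested, and Il3ra, the IL-3 receptor, rose by 0.47 ± 0.10 (SE, adjusted p = 0.0128, limma), with adjusted p = 0.076 with the slide as a random block, while Il5 (0.68) and Il5ra (0.31) were not called.

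In the IL-10 family 9 of 11 members were tested, 4 rose and none fell (beside 21.8% and 17.2% of all genes), although 1 fitted difference, that of Il20ra, was below 0. Il22ra2, a soluble decoy that neutralises IL-22, was below background in all AKP mice (-8.72, -8.67, -7.74 and -7.94). In AKP::Keap1 mice it read -6.82 and -5.68 in males, with 1 array above background, and -5.18 and -6.28 in females. The change was at least 1.63-fold, but the difference read -0.15 with normexp background correction. Its adjusted p (0.0041, limma) was taken on AKP values below background. Il22ra2 passed the filter on dim probes only through AKP::Keap1 mice. Il22, a lymphocyte cytokine that acts on hepatocytes and bile duct cells, read -3.56, -3.65, -3.80 and -4.15 in AKP mice and -2.55, -2.76, -2.89 and -2.93 in AKP::Keap1 mice, males before females. The genotypes did not overlap, and the difference was 1.01 ± 0.11 (SE, adjusted p = 0.00201, limma); the mouse genome holds a near-identical copy, so the source gene is uncertain.

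Il10ra, the ligand-binding IL-10 receptor chain, rose by 0.60 ± 0.12 (SE, adjusted p = 0.0125, limma), with adjusted p = 0.0511 with the slide as a random block. Il20rb, a receptor chain for IL-19, IL-20 and IL-24, rose by 0.36, a call lost with the slide as a random block (adjusted p = 0.113) and without either AKP male, AKP::Keap1 male replicate 2, either AKP female or AKP::Keap1 female replicate 2, with adjusted p up to 0.0998. The ligands Il10 (0.25), Il19 (0.16) and Il24 (0.39) and the receptor chains Il10rb (0.33) and Il20ra (-0.46) were not called.

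All 3 members outside these families rose, beside 21.8% of all genes. Il4i1, an enzyme that breaks down aromatic amino acids, rose by 0.92 ± 0.14 (SE, adjusted p = 0.00497, limma), with no overlap between genotypes. Il34, a ligand of the macrophage growth factor receptor, rose by 0.77 ± 0.19 (SE, adjusted p = 0.0213, limma). Its call was lost with the slide as a random block (adjusted p = 0.0641) and without AKP male replicate 2, AKP::Keap1 male replicate 2 or AKP female replicate 2, with adjusted p up to 0.0704. Il16, a lymphocyte attractant, rose by 0.33 ± 0.08 (adjusted p = 0.0211, limma). Its call was lost with the slide as a random block (adjusted p = 0.069) and without AKP male replicate 2, either AKP::Keap1 male, AKP female replicate 2 or AKP::Keap1 female replicate 2, with adjusted p up to 0.0756.

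By role, 8 of 21 ligands tested rose and none was called lower, and 11 of 31 receptor chains rose and 6 fell. Of 5 decoys and antagonists 2 rose, Il1r2 and Il22ra2. Of all genes, 21.8% were called higher and 17.2% lower. All 6 members called lower were receptor chains, of which Il4ra and Il12rb1 read higher on their other probes (1.11 and 0.28). Some members that lie side by side in the genome shared a sign and others did not. On chromosome 1 the order is Il1r2, Il1r1, Il1rl2, Il1rl1, Il18r1 and Il18rap, with differences of 3.02 for Il1r2, -0.71 for Il1r1, 1.43 for Il1rl1 and 0.58 for Il18r1. Il17re (2.06) has Il17rc (0.19) as its next gene, Il31ra has Il6st (-0.06), and Il21r (1.62) has Il4ra (-0.71). The neighbours Il24 (0.39), Il19 (0.16) and Il10 (0.25) were all above 0, and none was called.

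RefSeq lists 79 promoter windows of GRCm38.p6 for 64 of the 81 members, each from 250 bases before to 50 after a start, and each motif was searched on both strands. The STAT motif TTCNNNGAA was found in 6 of 23 windows of members that rose (26.1%), those of Il31ra, Il1r2, Il7r, Il18r1, Il17d and Il4. It was in 8 of 57 windows of members tested (14.0%), in 8.30% of all 32851 windows and in none of 5 windows of members that fell. The 23 windows belong to 17 genes. Il7r and Il4 read below 0 with normexp background correction, Il18r1 with probes averaged and Il17d on its other probe. The antioxidant response element core TGACNNNGC was found in 4 of the 23 (17.4%), in Il17re, Il17rd, Il1rl1 and Il4, in 1 of the 5 (Il4ra), in 15.8% of those of members tested and in 12.4% of all windows. AP-1, searched as TGANTCA, which can share letters with the antioxidant response element core as it does in Il15ra, was in 1 of the 23 (4.35%) and none of the 5. It was in 17.5% of those of members tested and in 7.81% of all. The NF-kappaB consensus was in 2 of the 23 (8.70%), in 1 of the 5 (Il4ra), in 12.3% of those of members tested and in 4.51% of all. These matches describe the letters of the windows and show no binding.

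Within each sex fewer members were called. In males 24 of 58 were called, 41.4% beside 28.2% of all genes, with 21 higher (16.7% of all genes) and 3 lower (11.5%). In females 18 were called, 31.0% beside 21.4%, with 12 higher (12.3% of all genes) and 6 lower (9.1%). The fitted differences had the same sign in both sexes for 40 of 58 members (69.0%, beside 68.8% of all genes) and correlated at Pearson's r = 0.70 across members, which are not independent replicates. Called in both sexes were 11 of 58 members, Il17d, Il17f, Il17re, Il1f6, Il1r2, Il1rap, Il1rn, Il22, Il22ra2, Il31ra and Il4i1, all in the same direction except Il1rn. Of all 15833 genes, 1746 were called in both sexes, 1694 of them in the same direction. Il1f6, Il31ra, Il17f and Il22ra2 passed the filter on dim probes only through AKP::Keap1 mice. With normexp background correction Il17f (-0.55) and Il22ra2 (-0.49) were negative in males.

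Called in males and not in females were Il10ra, Il11ra1, Il12rb1, Il17rd, Il1b, Il1rl1, Il20rb, Il21r, Il2ra, Il33, Il5, Il7 and Il7r, and for none of them was the genotype difference called as differing between the sexes. Il5, the eosinophil growth factor, was below background in both AKP males (-7.07 and -8.58) and above it in both AKP::Keap1 males (-5.92 and -6.08), at least 1.46-fold, but read -0.46 with normexp background correction. Il33, the alarm ligand of Il1rl1, rose by 0.88 ± 0.25 in males (adjusted p = 0.046, limma), mainly through AKP::Keap1 male replicate 2 (-0.13, against -0.89, -1.38 and -1.41 in the other males). Called in females and not in males were Il13ra1, Il17ra, Il17rc, Il1a, Il27, Il34 and Il3ra. Il27, a cytokine of antigen-presenting cells, fell by 0.96 ± 0.24 in females (SE, adjusted p = 0.0382, limma), from 0.72 and 0.71 to -0.24 and -0.25.

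These within-sex calls rest on 2 mice a side. The male count was 12 without AKP male replicate 1, 13 without AKP male replicate 2, 12 without AKP::Keap1 male replicate 1 and 8 without AKP::Keap1 male replicate 2, and 7 of the 24 male calls held whichever array was left out. The female count was 7 without AKP female replicate 2, 11 without AKP::Keap1 female replicate 1, 10 without AKP::Keap1 female replicate 2 and 10 in a fit of the 4 female arrays alone, and 5 of the 18 female calls held whichever array was left out. The male split of 21 higher to 3 lower became 35 to 1 without scaling, 15 to 9 with the shift to the array median and 9 to 12 with normexp background correction.

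**Figure D4:**
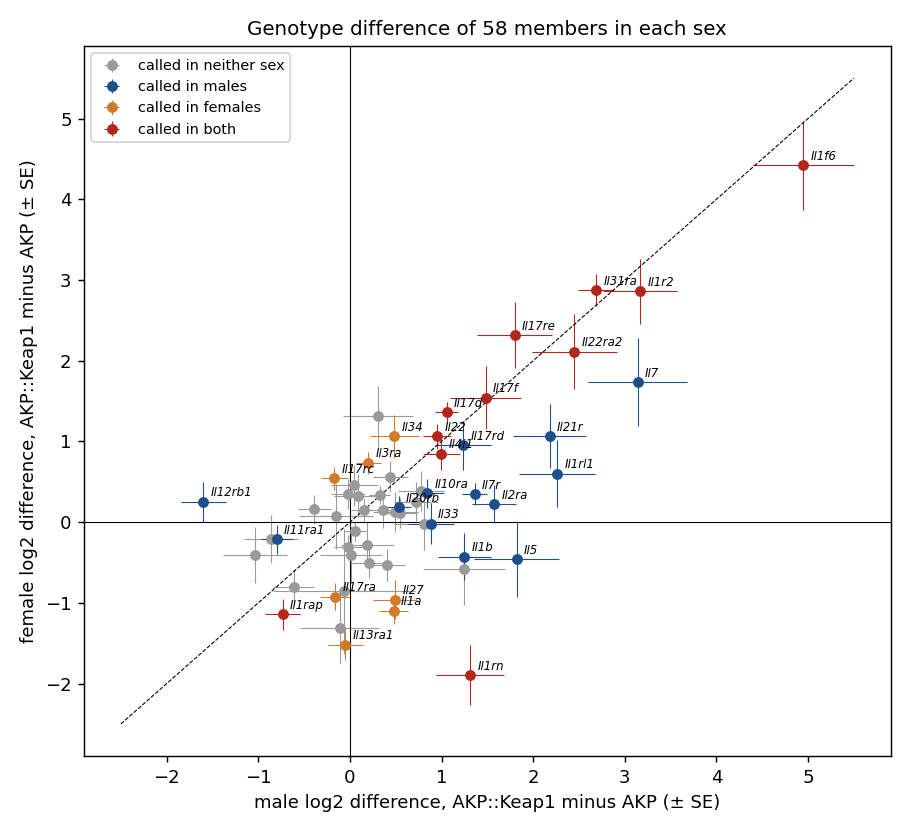
Log2 difference AKP::Keap1 minus AKP in males (horizontal axis) and in females (vertical axis), each with its standard error, for the 58 members; colours show in which sex a member was called and the dashed line marks equal differences. Il1f6, Il1r2, Il31ra, Il17re and Il22ra2 lie at the upper right, at 1.80 or more in both sexes, and Il1rn lies at the lower right, at 1.31 in males and -1.90 in females; with normexp background correction Il22ra2 is at -0.49 and Il7 at -0.08 in males.

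Between the sexes, as the mean over both genotypes, 20 of 58 members were called (34.5%, beside 21.1% of all genes), 16 higher in females (10.9% of all genes) and 4 lower (10.3%). In this comparison sex cannot be told apart from scan day and slide. On the probes used, the 4 arrays of each sex did not overlap for 11 members higher in females (beside 6.01% of all genes). They also did not for 2 lower, Il12rb1 and Il12rb2 (beside 6.93%). The largest difference was that of Il1rn, female minus male 1.90 ± 0.26 (SE, adjusted p = 0.00926, limma), whose levels in each mouse are given above and whose sexes overlapped. Il12rb1 read -0.69 and -0.73 in AKP males against -2.65 and -1.98 in AKP::Keap1 males. It read -3.51 and -3.11 in AKP females and -2.99 and -3.12 in AKP::Keap1 females. On this probe every male was above every female, with a difference of -1.67 ± 0.17 (adjusted p = 0.00482, limma). Its other probe, above background on all 8 arrays, read -5.30, -5.02, -5.28 and -4.77 in males, AKP before AKP::Keap1. In females that probe read -5.66, -5.40, -4.95 and -5.24, so on it the sexes overlapped.

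Of the common gamma chain family 7 of 12 members tested were higher in females, Il2rg, Il2rb, Il9r, Il21r, Il7r, Il15 and Il4, and Il4ra was lower. Il2rg, the common gamma chain itself, read -3.49, -2.80, -3.09 and -3.03 in males and -1.77, -2.03, -1.79 and -1.36 in females, AKP before AKP::Keap1. All females were above all males, and the difference was 1.37 ± 0.19 (SE, adjusted p = 0.00913, limma). Il2rb, which passes on IL-2 and IL-15 signals in T and NK cells, read -3.29, -2.17, -3.10 and -2.66 in males and -1.71, -1.55, -1.22 and -1.90 in females. Its sexes did not overlap either, with a difference of 1.21 ± 0.29 (SE, adjusted p = 0.0343, limma). In the same arrays 5 of 9 T and NK cell markers (median difference 0.99), 4 of 6 B and plasma cell markers (median 1.17) and 2 of 6 Kupffer cell markers were higher in females, though the summed linear level of the T and NK list was 27.5 to 46.0 in males and 21.3 to 47.4 in females. Their part in these differences was not tested.

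The other members higher in females were Il1a (1.18), Il1b (1.04), Il18r1 (0.92), Il10ra (0.81), Il27ra (0.69), Il13ra1 (0.53), Il4i1 (0.53) and Il16 (0.49). The others lower were Il12rb2 (-1.12), Il4ra (-0.96) and Il17d (-0.42). The other probe of Il4ra read -1.59 to -0.26 in males and -1.68 to -0.42 in females. With the slide as a random block 3 of the 20 calls remained, Il12rb2, Il2rg and Il9r. The count was 13 without AKP::Keap1 male replicate 1, 11 without AKP::Keap1 male replicate 2 and 13 without AKP female replicate 1. The split of 16 to 4 became 14 to 8 with the shift to the array median and 8 to 10 without scaling.

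**Figure D5:**
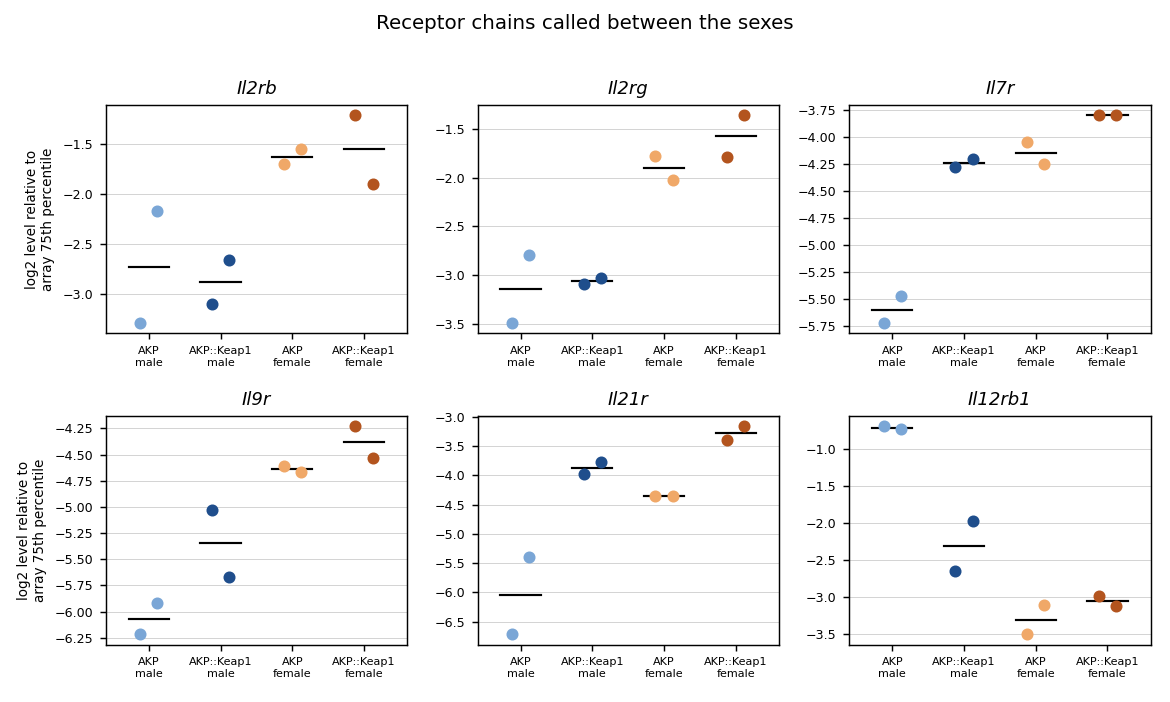
Log2 level relative to the array's 75th percentile in each mouse (points) with group means of 2 (bars) for 6 receptor chains called between the sexes; open points mark groups in which neither array was well above background. Il2rb, Il2rg and Il9r are higher in all 4 females than in any male and Il12rb1 is lower in all 4, whereas Il7r and Il21r overlap between the sexes. On the other probe of Il12rb1, not shown, the sexes overlap. Sex and scan day cannot be told apart.

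Lists of genes that work with the members were counted by genotype in the same fit. Of all genes 39.1% were called in it, 21.8% higher and 17.2% lower. Of 20 partner chains and related cytokines tested, 8 rose and 1 fell, with a median difference of 0.48. Ifnlr1, which pairs with the IL-10 receptor chain Il10rb to bind lambda interferons, rose by 3.22 ± 0.42 (SE, adjusted p = 0.00322, limma). It read -5.43, -5.72, -4.93 and -6.15 in AKP mice and -2.11, -2.11, -3.38 and -1.73 in AKP::Keap1 mice, males before females. The IL-6 type cytokines Clcf1 (1.32) and Osm (0.62) also rose, and Lifr, a receptor chain that pairs with Il6st, fell by 1.14. Of 18 JAK, STAT and SOCS genes 1 rose, Stat4 (1.13), and 2 fell, Stat6 (-0.46), which acts below the IL-4 receptor, and Socs2 (-1.86), with a median of -0.07, and 7 were called when arrays were shifted to their median.

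Of 21 genes of the MyD88 and NF-kappaB route 4 rose and 3 fell, with a median of -0.08. This share called was below the 39.1% of all genes. Relb (1.45) and Nfkbie (1.39), both themselves induced by NF-kappaB, and Irak1 (0.29) and Tnfaip3 (0.94) rose, and Tollip (-0.45), Traf6 (-0.45) and Ikbkb (-0.41) fell. These 7 calls became 4 without AKP::Keap1 male replicate 1, 3 without AKP::Keap1 male replicate 2, 4 without either AKP female and 3 with the slide as a random block. Of 14 inflammasome genes, which release active IL-1 beta and IL-18, 5 rose and 1 fell, with a median of 0.40; Panx1 (1.82), Casp4 (1.36) and Nlrp1b (0.93) rose and Txnip (-0.59) fell.

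The 23 members not tested were mostly ligands. In the IL-1 family these were Il1f5, Il1f8, Il1f9, Il1f10, Il1rl2, Il18rap, Il1rapl1, Il1rapl2 and the antisense RNA Il1bos. In the IL-12 family they were Il12a, Il23a and Il23r, in the IL-17 family Il17a, Il17b, Il17c and Il25, and in the IL-10 family Il20 and Il22ra1. The others were Il3, Il9, Il13, Il21 and Il31. Of these 16 were above background on no array and 7 on 1 array, Il17a, Il17c, Il18rap, Il1f9, Il1rl2, Il22ra1 and Il23a.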

How the data were processed

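Total RNA of whole liver was measured on 1-colour Agilent mouse arrays (design 026655), 500 ng labelled with Cy3 per sample per the labels' protocols, in 4 groups of 2. The values deposited in the scanner files are linear intensities per spot from Feature Extraction, version 10.7.3.1 per the file headers and 10.1 per the submitters' processing notes. The processed signal already has the software's background subtracted. The deposited series matrix holds the same intensity values (355176 of 355176 equal), with no scaling between arrays.

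Control and outlier spots were left out (1377 and 72 to 191 of 44397 spots per array), and log2 signals of the spots of a probe were averaged. Each array's 75th percentile was subtracted. Through unversioned RefSeq accessions in a GRCm38.p6 table, 26055 of 39429 probes received 1 symbol, and the 13374 unnamed were not used. As the file headers name mm9, no gene coordinates are given, and promoter windows carry their own build. A probe stayed in if 2 or more of the 8 arrays marked it as well above background, and each gene took its brightest such probe on average (15833 genes). The number of arrays limits the precision.

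limma 3.58.1 in R 4.3.3 fitted 1 mean per group over 8 arrays (lmFit, eBayes, two-sided, Benjamini-Hochberg over all genes, called below 0.05). All adjusted p-values come from limma. A gene below background on all arrays of a side is given as a lower bound on its fold: the mean of the bright side over that of the dim side, each dim value first raised to the lowest signal well above background on its array. The adjusted p of such a gene comes from the fit on its unraised values. The fit was tested on simulated data.

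Members and lists were chosen with earlier results of these data known. Every called member is named. Values on each array are given for the 12 called members with the largest genotype difference, those whose genotype difference was called as differing between the sexes and the 4 with the largest sex difference, and further arrays were added after values were seen. Of members not called, all tested ones are named. For each pathway list up to 3 members per direction with the smallest adjusted p are named, with Tnfaip3 added.

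Replicate numbers paired no samples: deviations of same-numbered samples correlated at -0.156 to 0.123. Alternatives were normexp (offset 50), quantile scaling, a shift to the median, no scaling, other probe filters, averaged probes, trend and robust variances, the replicate number or the slide as a block, and leaving out each array. Normexp used the median foreground signal.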

Additional observations from a re-analysis of the deposited data

Results flagged for a closer look

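Il1rn was singled out because its genotype difference differed between the sexes by the interaction term: it was 1.31 in males and -1.90 in females, a female minus male difference of -3.21 (adjusted p = 0.0478, limma). All AKP::Keap1 males were above all AKP males and all AKP::Keap1 females below all AKP females.

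Il1a was singled out by the same term, with 0.48 in males and -1.10 in females, a difference of -1.58 (adjusted p = 0.0401, limma). Both calls were lost when any one of the 8 arrays was left out. Groups of 2 arrays were too small to look for single outlying samples.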

How the results depend on the processing

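By genotype over both sexes 28 members were called, and 22 to 28 when 1 array was left out, with the lone sample assumed to vary like the others. The count moved by over 1.5 times only with the slide as a random block (15, at a consensus correlation of 0.23), and with a filter on all 8 arrays the split was 14 to 7. With the replicate block 30 members were called by genotype, 23 in males, 15 in females and 18 by sex, and 0 for the interaction. In males leaving out 1 array gave 8 to 25 calls. In females it gave 7 to 16, and a fit of the 4 female arrays alone gave 10. For the interaction the 2 calls became 0 with quantile normalization, 0 without the filter on dim probes, 5 with the shift to the array median, 4 with the series matrix values, 5 with probes above background on all 8 arrays, 4 with trend and robust variances, and 0 to 2 when 1 array was left out. By sex the 20 calls became 3 with the slide as a random block and 11 to 18 when 1 array was left out.

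Some genotype differences changed sign. With normexp these were Il17f (-0.17), Il17rb (-0.0058), Il22ra2 (-0.15), Il2ra (-0.10), Il4 (-0.14), Il5 (-0.28), Il6st (0.036), Il7r (-0.037) and Il9r (-0.18), and in males Il17f (-0.55), Il22ra2 (-0.49), Il2ra (-0.18), Il5 (-0.46), Il7 (-0.079) and Il7r (-0.16). With the series matrix values they were Il12rb2 (0.28), Il15 (0.27), Il18 (0.20), Il1a (0.000246), Il1rn (0.017), Il27 (0.076), Il27ra (0.14), Il2rb (0.27) and Il6st (0.25). With the shift to the array median they were Il17rb (-0.092), Il17rc (-0.0604) and Il2rg (-0.0391), and with averaged probes Il17rc (-0.00501), Il18r1 (-0.42) and Il4ra (0.20). Leaving out 1 array gave -0.061 to 0.0041 for Il12rb2, -0.27 to 0.18 for Il15, -0.32 to 0.24 for Il2rb, -0.049 to 0.72 for Il6 and -0.20 to 0.069 for Il6st. The shift to the array median moves all genes of an array by the same amount, as does leaving out the scaling in the series matrix values. The sign changes were not otherwise tested for a cause. Calls of Il10ra, Il16, Il18r1, Il20rb, Il34, Il3ra and Il4 were lost with the shift to the array median, and those of Il11ra1, Il12rb1 and Il17ra with the series matrix values. Signal over background limits Il1f6, Il31ra, Il22ra2, Il17f and Il2, which have only a bound in AKP mice.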
